A study of Mus musculus with 2 samples.

Results

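Lipid-exporting enterocytes were the absorptive cells of the sort in which Apoa4 and Apoc3, a pair of apolipoprotein genes, made up a large share of the messenger RNA. A cell counted as a member when Apoa4 and Apoc3 together held at least 0.5% of its unique molecular identifiers (UMIs, each standing for 1 captured RNA molecule). Members also had Fabp6 below 0.1%, a limit aimed at bile acid-absorbing cells of the ileum. They held under 0.5% in 5 goblet genes (Muc2, Fcgbp, Clca1, Zg16, Tff3), and under 5% in Paneth genes (all genes with the prefix Defa, plus Lyz1). Fewer than 3 of 5 villus tip genes (Ada, Nt5e, Slc28a2, Clca4a, Slc23a4) were detected in them. The rule found 422 members among 12554 kept cells, or 3.36%. Values of these same cells chose the members, so the levels of the rule's genes are given as a description.

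The study compared wild type littermates (WT) with MG53-TG mice, which carry a transgene that overexpresses MG53 (gene symbol Trim72, a membrane repair protein) across the body. Both genotypes received 2.5% dextran sulfate sodium, a salt that injures the gut lining, and cells were taken on day 7, so no uninjured group stands beside them. Crypts of the intestine were dissociated, and live epithelial cells (EpCAM positive, 7-AAD negative) were sorted and captured with the 10x Genomics 3′ kit, version 3. There was 1 library per genotype. The study's legend gives an n of mice per group but not how these mice entered the library, and cells were not traced to mice here, so no test between genotypes was possible. All intervals below are 95% intervals that cover counting error only and say nothing of the spread between mice.

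Enterocytes take up fatty acids and monoglycerides from the gut lumen, rebuild triglycerides in the endoplasmic reticulum, and load them onto apolipoprotein B with the help of the microsomal transfer protein. The particles, called chylomicrons, collect further apolipoproteins such as A-I, A-IV and C-III and leave for the lymph. Cells change as they move up the villus, and genes for antimicrobial proteins, nutrient transport and lipid export are known to reach their peaks at successive heights, with a separate programme at the tip.

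Apoa4 encodes apolipoprotein A-IV, which is carried on chylomicrons. Apoc3 encodes apolipoprotein C-III, an inhibitor of triglyceride clearance. Leap2 encodes a secreted peptide that opposes ghrelin at its receptor. Slc2a2 encodes the glucose and fructose carrier GLUT2. In GENCODE vM21 on mm10, the build of the files, Apoa4 lay on the plus strand of chromosome 9 from 46240696 to 46243459. Apoc3 lay beside it on the minus strand from 46232933 to 46235636, and Apoa1, for apolipoprotein A-I, on the plus strand from 46228580 to 46230466. With Apoa5, from 46268633 to 46271919, the cluster of 4 genes spanned 43340 bases. Leap2 lay on chromosome 11 from 53422181 to 53423170 on the minus strand, and Slc2a2 on chromosome 3 from 28697903 to 28731359 on the plus strand.

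The sequences just upstream of Apoa4, Apoa1 and Slc2a2 are shown because Apoa4 chose the members, its neighbour Apoa1 was not used by the rule, and Slc2a2 was a marker that the rule did not use. They come from RefSeq (GRCm38.p6, plus strand, 5′ to 3′) and end just before the gene start in GENCODE. Capitals mark a match to a searched motif.
Apoa4, chr9:46240594-46240695: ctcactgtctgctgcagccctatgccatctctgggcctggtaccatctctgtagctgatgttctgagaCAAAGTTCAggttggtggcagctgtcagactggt
Apoa1, chr9:46228380-46228579: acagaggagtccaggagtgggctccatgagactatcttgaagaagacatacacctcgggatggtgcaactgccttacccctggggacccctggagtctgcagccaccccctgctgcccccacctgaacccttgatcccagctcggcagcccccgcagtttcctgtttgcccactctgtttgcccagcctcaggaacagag
Slc2a2, chr3:28697653-28697902: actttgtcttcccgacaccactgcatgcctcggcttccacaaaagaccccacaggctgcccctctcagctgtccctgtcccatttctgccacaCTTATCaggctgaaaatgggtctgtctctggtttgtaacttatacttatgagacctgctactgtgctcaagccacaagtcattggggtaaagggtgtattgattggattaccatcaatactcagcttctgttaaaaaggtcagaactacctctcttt

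The 250 bases before each RefSeq start were searched on both strands for CAAAGTCCA and CAAAGTTCA, both bound by factors of the HNF4 family. The search also covered GATAAG, which zinc finger factors of the gut bind, and TATAAA, of core promoters. No searched motif contains another. The Apoa4 stretch held CAAAGTTCA at position -182 from the RefSeq start, a form found in 110 of 32851 promoters (0.335%). The Slc2a2 stretch held GATAAG on the minus strand at position -157, a form found in 6.55% of promoters. These letters were not found before Apoa1, whose 250 bases held none of the motifs. CAAAGTCCA was found in 0.384% and TATAAA in 12.4% of promoters. A match is only a match of letters.

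Members made up 245 of 7401 kept WT cells (3.31%, exact binomial interval 2.91 to 3.74) and 177 of 5153 kept MG53-TG cells (3.43%, 2.95 to 3.97). The share was 0.125 percentage points higher in MG53-TG, with a Newcombe interval from -0.509 to 0.781 that spans 0. Of all kept cells outside the goblet, Paneth and T cell limits, members were 1.40 points more frequent in MG53-TG. With the mitochondrial limit at 50% the difference was 1.42 points, and with the lower limit for Apoa4 and Apoc3 at 0.25% it was 1.30 points. All of these alternatives lie above the upper end of that interval (0.781), which belongs to the main rule only. The condition on tip genes alone kept out 76 WT and 73 MG53-TG cells, and the condition on Fabp6 alone 7 and 4. At the limit, the lowest members held 0.5004% of UMIs in WT and 0.5007% in MG53-TG, while the nearest cells outside held 0.496% and 0.498%.

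Within members, the share of UMIs from Apoa4 and Apoc3 had a median of 0.862% in WT (range 0.5004 to 3.39%) and 0.827% in MG53-TG (0.5007 to 3.20%). The ranges overlapped almost wholly. A share of 1% or more was reached by 98 WT members (40.0%) and 61 MG53-TG members (34.5%), a difference of -5.54 points (-14.6 to 3.84). Apoa4 gave 82.0% of the UMIs of the pair in WT and 77.4% in MG53-TG. All members of both libraries had Apoa4, and 233 of 245 WT and 174 of 177 MG53-TG members had Apoc3.

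**Figure D1:**
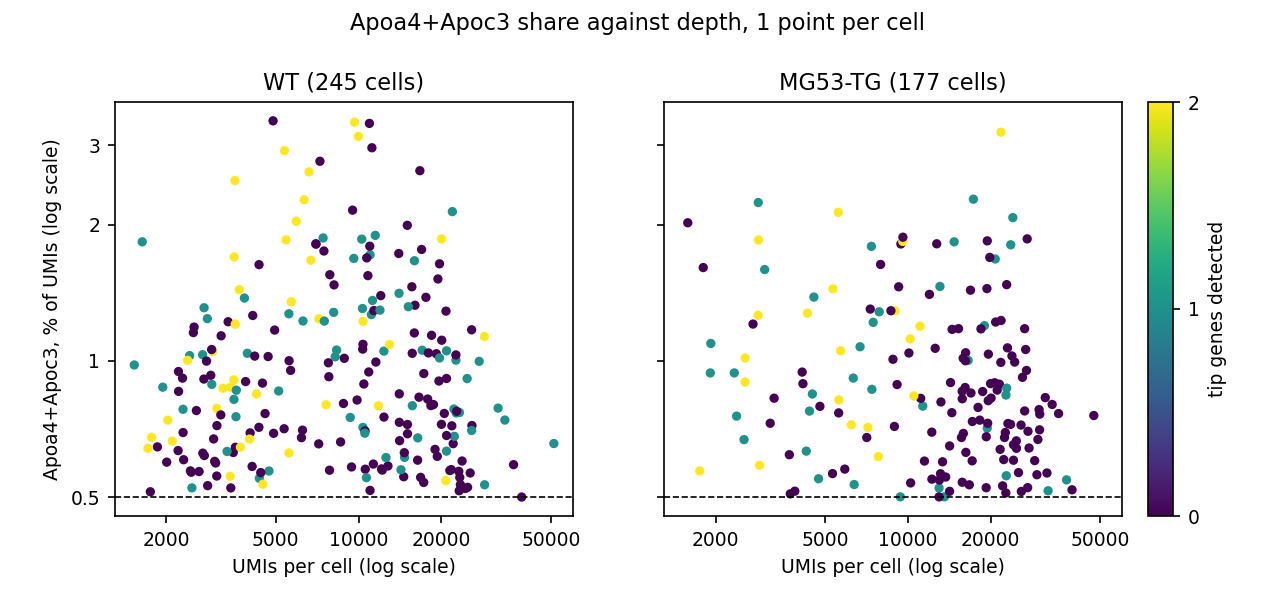
Each point is 1 member, with its UMIs on the x axis (log scale) and the percent of UMIs from Apoa4 and Apoc3 on the y axis (log scale); colours give how many of the 5 tip genes were detected and the dashed line is the 0.5% limit. WT members reach 3.39% and MG53-TG members 3.20%, and more MG53-TG members than WT members lie at high depth (median 15271 against 9516 UMIs).

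Depth and RNA quality differed between members and other cells. Members had a median of 9516 UMIs in WT (1531 to 51298) and 15271 in MG53-TG (1584 to 47388), and they summed to 2702782 and 2719419 UMIs. Other kept cells had medians of 14625 and 18281.5 UMIs. Mitochondrial genes held a median of 11.9% of UMIs in WT members and 12.3% in MG53-TG members, against 4.39% and 3.87% in the other cells. The rule counts detected tip genes, which depends on depth. No tip gene was detected in 144 WT members (58.8%) and 120 MG53-TG members (67.8%), 1 in 64 and 37, and 2 in 37 and 20. Between members of a library, the share of Apoa4 and Apoc3 followed depth little, with a rho of -0.02 in WT and -0.18 in MG53-TG. The libraries shared 46 barcodes of 500 UMIs or more, of which 8 were kept in both and none was a member in both.

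The label was checked against the markers Leap2 and Slc2a2, which the rule did not use. Levels are UMIs of a gene per 1000000 UMIs of the cells summed (CPM). Each UMI is counted near the 3′ end, and no scaling for gene length was applied. Leap2 stood at 293 CPM in WT members (273 to 315) and 318 in MG53-TG members (297 to 340), against 15.7 and 23.0 in all other kept cells. Slc2a2 stood at 345 and 388 CPM, against 20.3 and 28.5. With every cell thinned to 1354 UMIs, Leap2 was detected in 25.5% of WT and 28.7% of MG53-TG members. The same value was at most 1.07% in goblet, Paneth and tuft cells, which should lack it (median depths 11718 to 41468 UMIs). Thinned detection of Slc2a2 was 32.8% and 37.8% in members and at most 1.02% in those types. Unthinned, Leap2 was detected in 66.5% of WT and 77.4% of MG53-TG members. In WT barcodes of 10 to 100 UMIs, which hold mostly free RNA, Leap2 was at 49.3 CPM and Slc2a2 at 82.3 CPM, below their levels in members.

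Apoa1, the neighbour of Apoa4 and Apoc3, was higher in members than in all other kept cells by 13.9-fold in WT and 13.3-fold in MG53-TG, at 37185 and 33904 CPM. Cells with 3 or more tip genes, which are among those other cells, held more of it than members, at 45938.5 and 39208 CPM. Apoa5, the last gene of the cluster, had no UMI in members of either library, which allows up to 1.11 CPM in WT and 1.10 in MG53-TG (3 UMIs over the members). Genes that flank the cluster did not share the high level. Sik3, a kinase, had 11.1 and 11.0 CPM and Zpr1, a zinc finger protein, 9.25 and 9.56.

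By the smaller of both libraries' folds over all other kept cells, the leading genes of members were Bst1 (27.6-fold in WT, 26.1-fold in MG53-TG), Slc5a12 (25.9 and 27.3), Cyp2b10 (26.1 and 25.6), Apoc3 (25.5 and 23.9) and Cyp3a11 (32.3 and 22.2). Dnase1, Lct, Apoa4, Slc7a15 and Unc93a2 followed, with the smaller fold going from 22.0 for Dnase1 to 15.6 for Unc93a2. Slc5a12 carries monocarboxylates such as lactate with sodium, Lct is lactase, and Cyp2b10 and Cyp3a11 are drug-oxidising enzymes of the cytochrome P450 family. Dnase1 is a secreted DNA-degrading enzyme and Bst1 a surface enzyme of nucleotide metabolism. These folds describe cells that were chosen by the same counts. The other cells here include those with 3 or more tip genes, in which Bst1 was at 359 CPM (WT) and 246 CPM (MG53-TG), above its 247 and 196 CPM in members.

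In Apoa4, members lay between the cells just below the 0.5% limit and the cells with 3 or more tip genes. Apoa4 went from 1831 CPM in WT cells at 0.1 to 0.5% (424 cells) to 8182 in WT members and 15440 in WT cells with 3 or more tip genes (76 cells), and from 1984 to 7091 and 15692 in MG53-TG (387, 177 and 73 cells). The rule set members above the cells below the limit, but it did not set their order with the tip cells. Apoc3 was higher in members, at 1791 and 2075 CPM against 1389 and 1548 in cells with 3 or more tip genes. Leap2, which the rule did not use, had another order. It was highest in members, at 293 and 318 CPM, against 134 and 169 in cells at 0.1 to 0.5% and 73.9 and 72.7 in cells with 3 or more tip genes.

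Slc2a2 had the same order as Leap2, with 345 and 388 CPM in members, 203 and 205 in cells at 0.1 to 0.5%, and 108 and 60.6 in cells with 3 or more tip genes. Lct was also highest in members, at 620 and 545 CPM. Apob, the scaffold of the chylomicron, was highest in cells with 3 or more tip genes, at 10591 and 8788 CPM against 3401 and 3209 in members. Sis (sucrase-isomaltase) and Reg3b (an antimicrobial lectin) were low in those tip cells, at 900 and 955 CPM for Sis and 10206 and 12775 for Reg3b, against 2680 and 3492 for Sis and 61127 and 45187 for Reg3b in members. Depth differed between these sets, with medians of 4095 and 4878 UMIs in cells with 3 or more tip genes, and its part in the order was not tested.

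**Figure D2:**
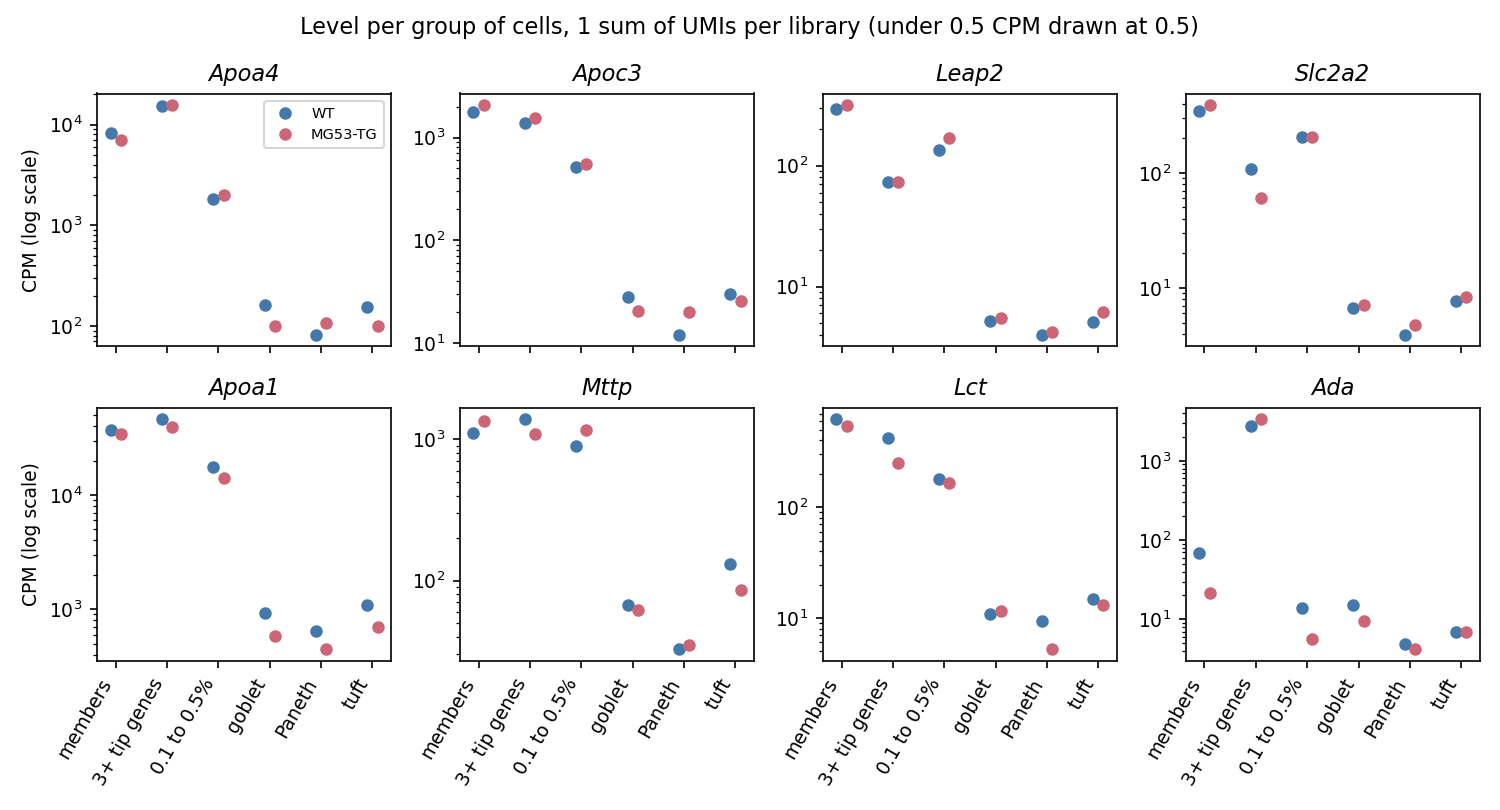
Each panel gives the level of 1 gene in CPM (log scale) in members, in cells with 3 or more tip genes, in cells with Apoa4 and Apoc3 at 0.1 to 0.5%, and in goblet, Paneth and tuft cells, with 1 point per library. Leap2 and Slc2a2 peak in members of both libraries (Leap2 293 and 318 CPM), whereas Apoa4 peaks in cells with 3 or more tip genes, as does Ada, whose detection helped to define that set.

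Members of MG53-TG and WT were then compared gene by gene. A gene was assessed when it had at least 20 CPM in either library and 30 UMIs in all, and it was called at 1.5-fold or more. Of 4790 genes, 187 were higher in MG53-TG (3.9%) and 70 were lower (1.46%), or 5.37% either way. The median log2 ratio of MG53-TG over WT was 0.09, and 64.9% of genes lay above 0. With median-of-ratios scaling, which shifts all log2 ratios down by 0.093, the split was 111 higher and 112 lower. With the mean of single-cell CPM it was 289 higher and 258 lower. Values below are therefore to be read against a median of 0.09. With one library per genotype, no call has a replicate check.

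The transgene was present in the MG53-TG members. Trim72 had 0 UMIs in 245 WT members, which allows a UMI of it in up to 1.22% of such cells but does not limit the share of cells that express it, and 345 UMIs in 95 of 177 MG53-TG members (53.7%). Its level of 127 CPM was at least 114-fold above the WT members, taking 3 UMIs over all of them as the floor. Other kept cells had 0.595 CPM of Trim72 (WT) and 48.2 CPM (MG53-TG). Of the other genes of the membrane repair list, 3 were assessed and none was called, and Anxa2 (annexin A2) was at 569 and 525 CPM.

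**Figure D3:**
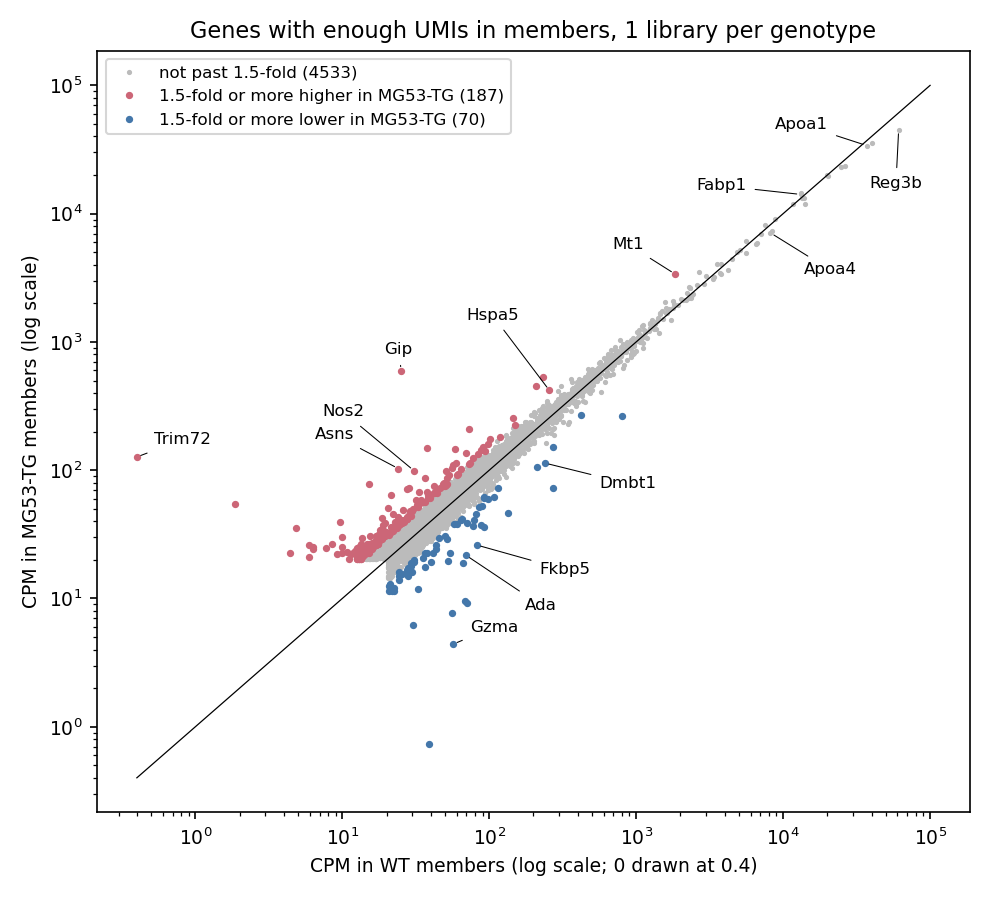
Each point is 1 of 4790 genes, with its CPM in WT members on the x axis and in MG53-TG members on the y axis (both log scales); red points are at least 1.5-fold higher in MG53-TG (187), blue points at least 1.5-fold lower (70). Apoa4, Apoa1 and Fabp1 lie close to the line of equal levels, and Trim72 lies at the left edge with 0 UMIs in WT.

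Genes for triglyceride and chylomicron assembly come first. Of 25 assessed, none was called in either direction, a count near the 5.37% of all genes, with a median log2 ratio of -0.03 in members against 0.14 for the same genes in other cells. Apoa4 was at 8182 CPM in WT members and 7091 in MG53-TG members, a log2 ratio of -0.21 (-0.23 to -0.18). Apoc3 went the other way, with 1791 and 2075 CPM and 0.21 (0.16 to 0.27). Both were rule genes, and neither reached the fold. Apob was at 3401 and 3209 CPM. Mttp, the large subunit of the transfer protein, had the highest ratio of the list at 1116 and 1361 CPM (0.29, 0.22 to 0.36). Lpin3, a phosphatidate phosphatase, had the lowest at 33.3 and 23.9 CPM (-0.48, -0.96 to 0.00).

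The lists for uptake and use of lipid were also near the background. Among 10 genes for fatty acid uptake, binding and activation none was called (median 0.06). Fabp1 and Fabp2, the fatty acid-binding proteins of liver and intestine type, were at 13201 and 14119 CPM and at 13255 and 14453 CPM. Acsl1, which activates fatty acids with coenzyme A, had the lowest ratio, at 78.4 and 54.4 CPM (-0.53), which was past the fold with median-of-ratios scaling. Of 31 PPAR targets and genes of fatty acid oxidation, 1 was called (median -0.09). It was Pdk4, a kinase that restrains pyruvate oxidation, which was lower at 30.7 and 19.1 CPM (-0.68, -1.21 to -0.17). Ehhadh and Hsd17b4, enzymes of peroxisomal oxidation, had the highest ratios at 0.42 and 0.37.

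Cholesterol handling had 1 call among 11 genes (median 0.04). Hmgcs1, of cholesterol synthesis, was higher at 44.0 and 66.9 CPM (0.60, 0.26 to 0.95), which was under the fold with median-of-ratios scaling and -0.10 with the limit for members at 1%. Npc1l1, the intake protein for cholesterol, was at 349 and 354 CPM. Abcg5 and Abcg8, which pump sterols back out, were at 198 and 203 CPM and at 180 and 172 CPM. None of 5 genes of ketone body metabolism was called, from Acat1 at -0.51, past the fold with median-of-ratios scaling, to Slc16a1 at 0.47. None of 6 genes of vitamin A handling was called, with Rbp2, a retinol-binding protein, at 13386 and 13171 CPM.

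For digestion and transport of sugars and peptides, the counts were again near the 5.37% of all genes. Of 14 genes for sugars none was called (median 0.07), from Pck1, of glucose formation, at 275 and 188 CPM (-0.55) to Fbp1, of the same route, at 109 and 153 CPM (0.48). With median-of-ratios scaling, Pck1 was past the fold. Of 19 genes for peptides and amino acids none was called (median -0.04). Anpep, an aminopeptidase, was at 1615 and 1676 CPM. Among 15 brush border genes 1 was called (median 0.07). It was Tmigd1, an adhesion protein, at 93.98 and 141 CPM (0.59), under the fold with median-of-ratios scaling. Vil1 (villin) was at 1354 and 1271 CPM.

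Metal handling had 3 calls among 8 genes. The metallothioneins, small zinc-binding proteins, were higher in MG53-TG. Mt1 was at 1835 and 3388 CPM (0.88, 0.83 to 0.93), detected in 207 of 245 and 157 of 177 members. Mt2 was at 233 and 535 CPM (1.20, 1.06 to 1.33). In other kept cells the log2 ratios were 0.28 for Mt1 and 0.35 for Mt2. Slc39a4, a zinc importer, was lower at 70.7 and 38.6 CPM (-0.87, -1.23 to -0.52), and the ferritin gene Fth1 was at 8772 and 9067 CPM.

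Among 26 transcription factors of the absorptive lineage, Srebf1, a regulator of lipid synthesis, was lower at 43.7 and 24.3 CPM (-0.85, -1.30 to -0.40). Creb3l3, a liver and gut factor that acts on apolipoprotein genes, was at 690 and 561 CPM (-0.30), and Maf at 361 and 510 CPM (0.50), both short of the fold. Smad4, at 104 and 73.2 CPM (-0.50), was past it with median-of-ratios scaling.

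Regional genes were also called at a share near the 5.37% of all genes. None of 12 genes of the proximal small intestine (median -0.07), 10 of the distal small intestine (median 0.03) or 4 of the colon was called. Genes of each list were present in members. Khk, the fructose kinase of the proximal list, was at 829 and 883 CPM, and Slc26a3 of the colon list at 145 and 141 CPM. Guca2b (uroguanylin), which the list used here counts as distal, was at 6628 and 5863 CPM. The whole distal list summed to 10902 and 10219 CPM. The placement of Guca2b was not tested, so this sum is no measure of a distal origin. Fabp6, kept low by the rule, was at 11.1 and 8.83 CPM.

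Among 10 genes of the villus base and middle none was called (median -0.01). Reg3b was at 61127 and 45187 CPM (-0.44, -0.45 to -0.43) and Reg3g at 14162 and 11981 CPM (-0.24). Of 11 villus tip genes 1 was called, Ada, an adenosine-degrading enzyme that the rule used, at 69.6 and 21.7 CPM (-1.68, -2.13 to -1.25). Without the condition on tip genes, Ada had a log2 ratio of 0.43. Krt20, a keratin of mature cells that the rule did not use, was at 1072 and 1031 CPM (-0.06). Ifrd1, at 21.8 and 15.1 CPM (-0.53), was past the fold with median-of-ratios scaling.

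**Figure D4:**
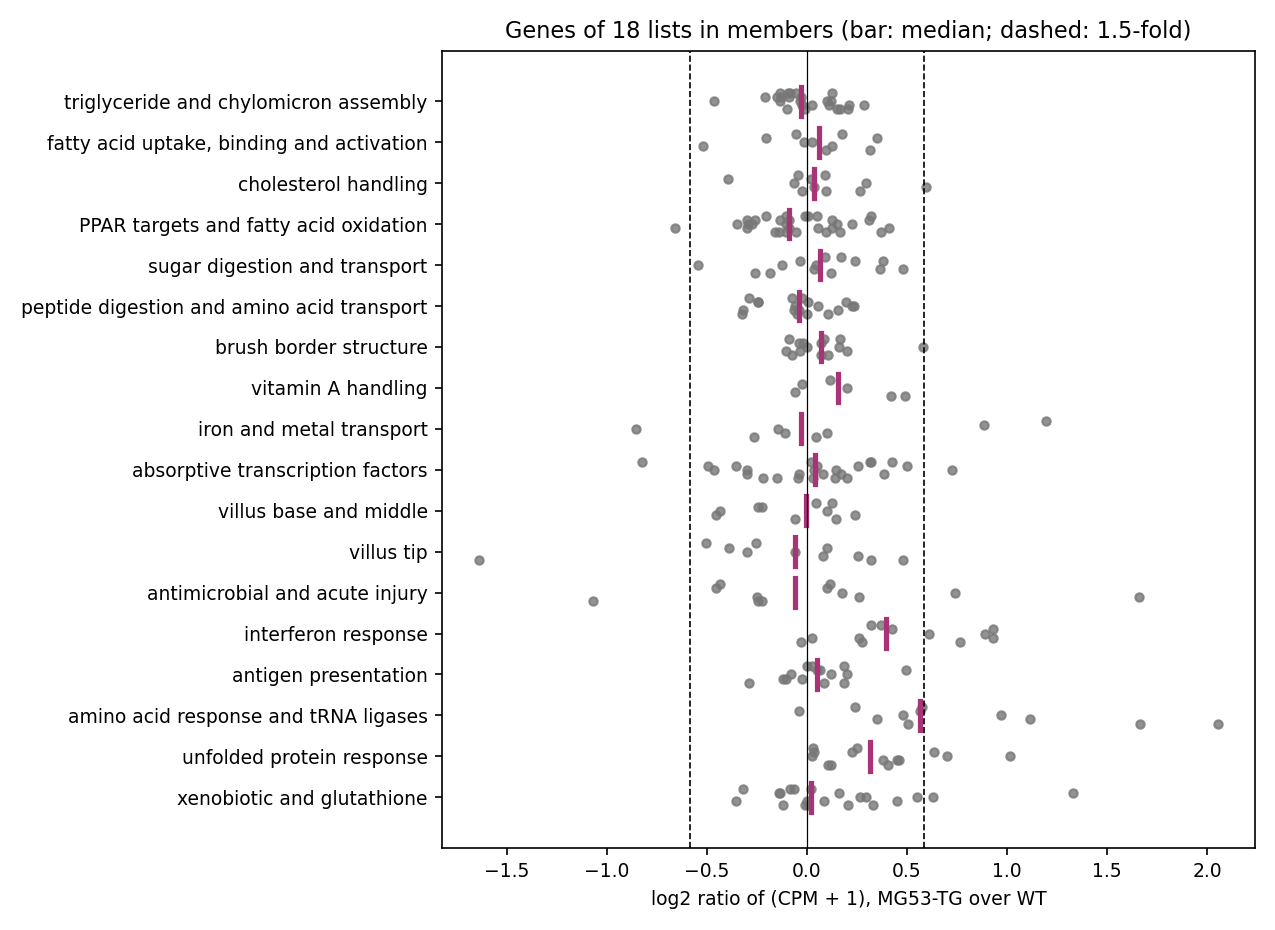
Each grey point is 1 gene of a list, placed by its log2 ratio of (CPM + 1) in members, MG53-TG over WT; the short bar is the median of the list and the dashed lines mark 1.5-fold. Chylomicron and sugar genes sit around 0 (medians -0.03 and 0.07), while interferon and amino acid response genes sit to the right (0.40 and 0.57).

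Injury and defence genes had a mixed pattern. Of 12 antimicrobial and acute injury genes 2 were higher and 1 was lower. Nos2, the inducible nitric oxide synthase, was at 30.7 CPM in 45 WT members and 99.3 CPM in 62 MG53-TG members (1.69, 1.33 to 2.07), with 18.5% of its MG53-TG UMIs in 1 cell. Duoxa2, a maturation factor for a hydrogen peroxide-forming oxidase, was at 38.1 and 64.4 CPM (0.76, 0.40 to 1.12). Dmbt1, a mucosal scavenger protein, was lower at 239 and 114 CPM (-1.08, -1.28 to -0.88). In other kept cells the log2 ratios were 0.37 for Nos2, -0.03 for Duoxa2 and -0.77 for Dmbt1. Ubd, an interferon-inducible ubiquitin-like protein named for its fold, was at 21.5 and 63.6 CPM (1.57, 1.13 to 2.02), with 17.3% of the MG53-TG UMIs in 1 cell.

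Interferon response genes leaned to MG53-TG in members and in other cells alike. Of 12 assessed, 5 were higher and none was lower, with a median of 0.40 in members and 0.70 in other kept cells. They were Isg15 (56.6 and 109 CPM, 0.94), Ifit1bl1 (55.9 and 104 CPM, 0.90), Oasl2 (44.4 and 68.4 CPM, 0.62), Rsad2 (15.5 and 30.5 CPM, 0.97) and Usp18 (14.1 and 24.6 CPM, 0.81). All 5 are induced by interferon. Isg15 is a protein tag, and Usp18 removes it from its targets. With median-of-ratios scaling, 4 remained past the fold, and with the limit for members at 1% the median was 1.39. Rsad2 rested on few cells, with 10 WT and 13 MG53-TG members and 50.6% of the MG53-TG UMIs in 1 cell. It turned to -1.01 in members with no tip gene. None of 15 antigen presentation genes was called (median 0.05), with Cd74, the class II chaperone, at 2373 and 2188 CPM.

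Genes of the amino acid response, which cells turn on when amino acids run short or the endoplasmic reticulum is stressed, had 5 calls among 11, all higher in MG53-TG (median 0.57 in members and 0.53 in other cells). Asns, asparagine synthetase, was at 24.0 CPM in 38 WT members and 103 CPM in 86 MG53-TG members (2.10, 1.70 to 2.51), against 0.89 in other cells. Nars, the asparagine tRNA ligase, was at 209 and 453 CPM (1.12, 0.97 to 1.26). Sars, the serine tRNA ligase, was at 69.2 and 136 CPM (0.98), Tars, the threonine one, at 49.9 and 75.02 CPM (0.59) and Trib3, a pseudokinase induced by ATF4, at 5.92 and 21.0 CPM (1.82). With median-of-ratios scaling 4 were past the fold, and with the limit for members at 1% the median was 0.17. Atf4 itself was at 142 and 181 CPM (0.35), short of the fold.

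A pair of genes from the 10 highest ratios belong to the same known response. Atf5, a stress-induced transcription factor, was at 15.2 CPM in 25 WT members and 77.6 CPM in 73 MG53-TG members (2.35, 1.87 to 2.87), against 1.36 in other kept cells. Eif4ebp1, a repressor of cap-dependent translation, was at 27.4 and 71.3 CPM (1.38, 0.99 to 1.79), against 0.85. With the limit for members at 1%, Eif4ebp1 had a log2 ratio of -0.20.

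Of 14 genes of the unfolded protein response, which enlarges the folding capacity of the endoplasmic reticulum, 3 were higher and none was lower (median 0.32 in members, 0.43 in other cells). Hspa5, the chaperone BiP, was at 257 and 418 CPM (0.70, 0.57 to 0.84). Dnajb9, its cochaperone, was at 22.2 and 46.0 CPM (1.05), and Manf, a secreted stress factor, at 118 and 183 CPM (0.64). All 14 lay above 0, and 11 of 14 did with median-of-ratios scaling, where 2 were past the fold. Calr (calreticulin) was at 265 and 289 CPM (0.12).

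None of 10 immediate early and heat shock genes was called (median 0.23), with Junb, a factor induced within minutes, at 77.0 and 108 CPM (0.49). Of 21 xenobiotic and glutathione genes 2 were called (median 0.02). Gstm3 and Gstm1, glutathione transferases that resemble each other in sequence, were at 58.1 and 147 CPM (1.34) and at 48.1 and 75.02 CPM (0.64), and Gstm1 was under the fold with median-of-ratios scaling. Cyp3a13 was at 938 and 855 CPM (-0.13). Il33, an alarm cytokine and the single gene of the regenerative list with enough UMIs, was at 29.6 and 19.9 CPM (-0.58), just short of the fold and past it with median-of-ratios scaling.

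Fkbp5, a cochaperone of the glucocorticoid receptor and itself induced by glucocorticoids, was among the 10 lowest ratios, at 82.1 CPM in 115 WT members and 26.1 CPM in 50 MG53-TG members (-1.65, -2.06 to -1.26). It was lower in the other kept MG53-TG cells too, by a log2 ratio of -1.22.

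Part of the extreme ratios came with RNA of other cell types. WT members held 68 UMIs of Gip, a hormone of K cells. MG53-TG members held 1621, of which 97.6% lay in 1 cell. The same held for Fabp5 (98.7%), Sct (secretin, 76.8%) and Krt18 (53.6%). Members with at least 0.1% of UMIs from hormone or T cell genes, or with 3 or more tuft genes, numbered 13 in WT and 6 in MG53-TG. Without them the log2 ratio was -0.58 for Gip, -0.73 for Fabp5, -0.21 for Sct and -0.05 for Krt18. Gip and Sct were among the hormone genes that chose the cells to remove, so their change follows in part from that choice. With them removed, 175 genes were higher and 85 lower. In WT, 82.5% of the UMIs of Gzma (a killer cell protease) and 86.7% of those of Olfm4 (a stem cell gene) lay in 1 cell each, as did 54.3% of those of Ccl5, a chemokine of T cells.

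Paneth cell genes were at low levels in members but lower in MG53-TG for all 7 assessed (median -1.32). Defa24, a defensin, was at 798 CPM in 240 WT members and 263 CPM in 168 MG53-TG members (-1.60, -1.73 to -1.48). Defa21 was at 71.0 and 9.19 CPM (-2.95), and Defa22, Defa30, Gm14851 and AY761184 were also among the 10 lowest. Reads of near-identical defensins may be split between copies, so values of single defensins are uncertain. The whole Paneth list summed to 1456 CPM in WT members and 492 in MG53-TG members, and to 66825 and 42809 CPM in other kept cells. In WT barcodes of 10 to 100 UMIs, which are mostly empty droplets, Defa24 stood at 25084 CPM, and no such barcodes were in the MG53-TG table. The part of free Paneth RNA in these ratios was not tested.

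The other lists of foreign cell types were low as well. Goblet genes, held down by the rule, summed to 1073 CPM in WT and 899 in MG53-TG members against 56140 and 84145 in other cells, with 1 of 8 called, Ang4, at 36.3 and 17.6 CPM (-1.04), which is also on the Paneth list. Tuft genes summed to 42.2 and 128 CPM, with Dclk1 (14.8 and 24.3 CPM) and Rgs13 (4.44 and 22.8 CPM) higher. Without the members that held RNA of other types, Dclk1 had a log2 ratio of -0.52, but Dclk1 was among the tuft genes that chose those members. Enteroendocrine genes summed to 475 and 478 CPM, with 1 of 4 higher (Sct) and 1 lower (Chga, which had a log2 ratio of 0.32 with the limit for members at 0.25%). Stem cell genes summed to 86.6 and 41.6 CPM, with 1 of 1 lower, and T cell genes to 94.7 and 10.3 CPM, with 1 of 1 lower. Neither of 2 cycling genes was called, and no gene of stroma and other leukocytes had enough UMIs. Among 9 housekeeping genes 1 was called, Krt18, and Actb (beta actin) was at 6576 and 5789 CPM (-0.18).

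Members were not uniform, and their levels were followed along the share of Apoa4 and Apoc3. Members were binned at 0.5 to 1% (147 WT and 116 MG53-TG cells), 1 to 2% (84 and 55) and 2 to 4% (14 and 6), and CPM was computed without Apoa4 and Apoc3. Of 4788 genes, 423 rose over the bins in both libraries (8.83%) and 748 fell in both (15.6%). Since the highest bin held under 20 cells, members at 1% or more (98 and 61 cells) were also compared with those under 1%, a split added after the data were seen. Of all genes, 29.1% were above and 34.5% below in both libraries, and 1.69% were at least 1.5-fold higher and 4.43% at least 1.5-fold lower. Genes named along the share were chosen after their values were seen. The bins order cells by a readout of the rule, so these values are a description. Over the 3 bins, median depth was 9332, 10306.5 and 8377.5 UMIs in WT and 16190, 11972 and 11440.5 in MG53-TG. Median mitochondrial shares were 11.7, 12.2 and 12.04% in WT and 12.3, 12.8 and 5.84% in MG53-TG. The part of depth and RNA quality in the changes along the share was not tested.

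Villus tip genes rose along the share. Over the 3 bins 9 of 11 rose in both libraries and none fell, and at 1% or more all 11 were above and 7 were at least 1.5-fold higher in both. The median log2 ratio of members at 1% or more over those under 1% was 0.71 in WT and 0.89 in MG53-TG. Ada and Clca4a belong to the rule, with 2.10 and 1.88 for Ada. Of those outside it, Krt20 went from 873 to 1435 CPM in WT (0.72, 0.61 to 0.82) and from 884 to 1431 CPM in MG53-TG (0.69, 0.58 to 0.81). Klf4, a factor of terminal differentiation, had 0.66 and 0.86, and Fos, an immediate early factor, 0.79 and 1.31.

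Genes of the villus base and middle fell. Over the 3 bins 8 of 10 fell in both libraries and none rose, and at 1% or more all 10 were below and 5 were at least 1.5-fold lower in both (medians -0.66 and -1.22). Reg1, a secreted lectin, went from 1606 to 203 CPM in WT (-2.98) and from 1327 to 316 CPM in MG53-TG (-2.07). Lypd8, which keeps bacteria off the epithelium, had -0.90 and -1.40. Reg3b differed between the libraries, with -0.06 in WT (62641 to 60238 CPM) and -1.18 in MG53-TG (54262 to 23937 CPM).

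**Figure D5:**
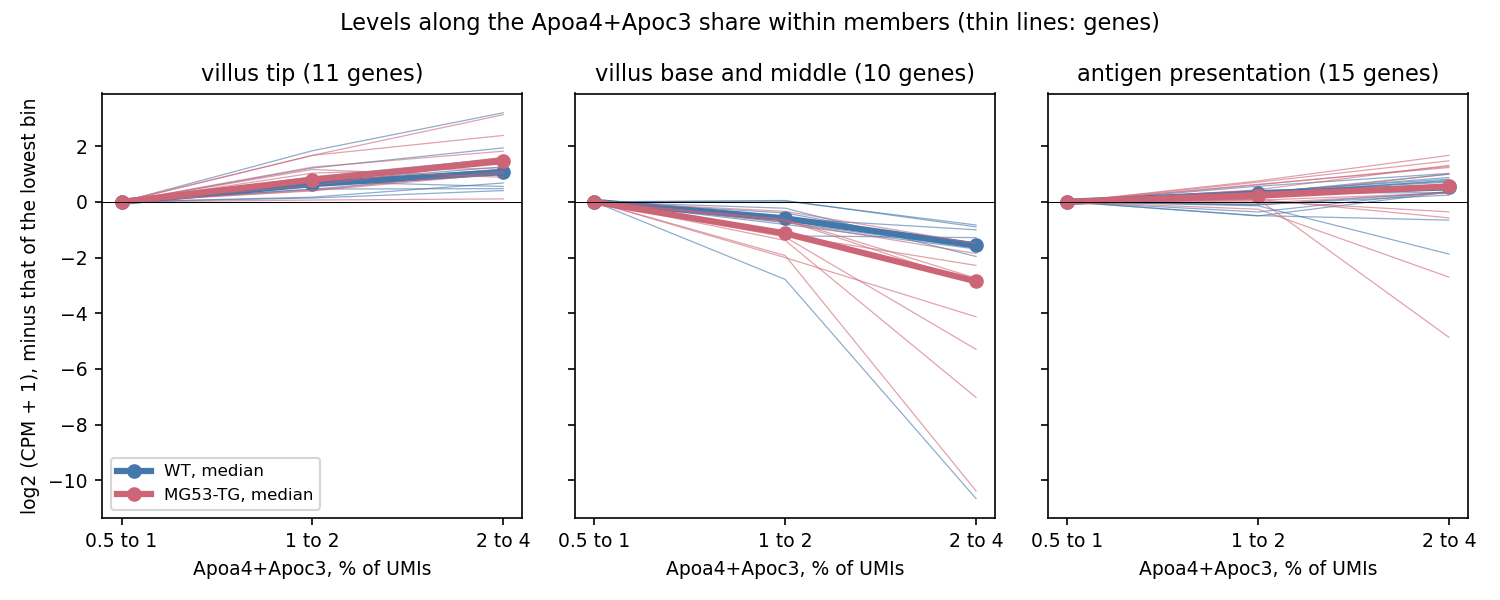
For 3 lists, the change of log2 (CPM + 1) from the lowest bin (y axis) is drawn over 3 bins of the Apoa4 and Apoc3 share (x axis, percent of UMIs), with thin lines for genes and thick lines for medians, in WT (blue) and MG53-TG (red). Tip genes climb (9 of 11 rise in both libraries) and genes of the villus base and middle fall (8 of 10), and the last bin holds 14 WT and 6 MG53-TG cells.

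Other apolipoproteins went up with Apoa4 and Apoc3. Apoc2, the cofactor of lipoprotein lipase, went from 2168 to 5400 CPM in WT (1.32) and from 2486 to 4803 CPM in MG53-TG (0.95). Apob had 0.68 and 0.79, and Apoa1 0.37 and 0.75. These 2 genes past the fold, Apoc2 and Apob, were the only ones in the list of 23 that were past it in both libraries. Mogat2, which rebuilds triglyceride from monoglyceride, was lower at 1% or more, with -0.30 and -0.43.

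Part of the antigen presentation and sugar genes rose, by less. Of 15 antigen presentation genes 9 rose over the 3 bins in both libraries. At 1% or more 9 were above and 4 below in both, with medians of 0.35 and 0.31 and 1 past the fold, H2-Aa of class II (0.63 and 0.86). Of 14 sugar genes 8 rose over the bins and none fell, and 12 were above at 1% or more, with 1 past the fold, Treh (trehalase, 0.64 and 0.72). Sis was the exception, at -0.49 and -0.37. Of 15 brush border genes 14 were above.

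Some genes of the xenobiotic and amino acid lists were lower at high shares. Of 21 xenobiotic and glutathione genes 5 were at least 1.5-fold lower at 1% or more in both libraries, Gsta1 (-2.24 and -1.58), Gsta4, Gstm1, Gstm3 and Gpx1, and 1 was at least 1.5-fold higher, Cyp3a11 (0.72 and 1.30). In all, 11 of the 21 were below and 6 above in both libraries, and the medians were -0.08 in WT and -0.07 in MG53-TG. Of 11 amino acid response genes 8 were below in both libraries, and 2 were at least 1.5-fold lower in both, Asns (-0.72 and -1.42) and Sars (-0.59 and -0.72). Interferon response genes differed between the libraries, with a median of -0.61 in WT and 1.03 in MG53-TG, and none of 12 rose or fell over the bins in both.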

How the data were processed

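Single-cell RNA was measured in 2 libraries, 1 WT and 1 MG53-TG. The authors deposited UMI counts per gene and barcode, not scaled, with mm10. Per the file headers they came from Cell Ranger 4 (WT) and 6.0.1 (MG53-TG). By their counts, the WT data listed 2005718 barcodes, of which 1487899 had a UMI. All 12361 barcodes of MG53-TG had 500 UMIs or more. Version, barcode filter and genotype therefore cannot be told apart. The submitters' processing notes also name Seurat. The annotation release, strand use and the handling of multi-mapping reads are not given in the sources used here.

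Kept barcodes had a minimum of 1354 UMIs and of 200 genes, with no more than 25% of UMIs from mitochondrial genes. UMIs of members were summed per library and given as CPM with exact Poisson intervals, log2 ratios with exact conditional binomial intervals, and shares with Clopper-Pearson intervals (Python 3.11.15, scipy 1.17.1). List medians used log2 (CPM + 1). Scrublet (scanpy 1.11.5) marked 1 WT and 2 MG53-TG cells (0.0135% and 0.0388%) and had not worked, so doublets stayed in; an alternative removed the 438 WT and 212 MG53-TG cells of highest score, with 5 and 4 members among them. Detection was compared after thinning to 1354 UMIs.

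The members, the 34 gene lists and the comparisons were chosen with earlier results of these data known. Genes were named by list, up to 6 for each (highest in CPM, or furthest from 0). Beyond the lists, the 10 highest and 10 lowest ratios at 50 CPM or more and the 10 largest folds over other cells were named. Alternatives were other limits of the rule, scalings and minimums.
A few items of these lists are not reported here.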

Additional observations from a re-analysis of the deposited data

Results flagged for a closer look

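Signal of the members' genes also appeared in barcodes outside the comparisons. In WT barcodes of 10 to 100 UMIs, which are mostly empty droplets, Apoa4 and Apoc3 held 0.189% of 3914134 UMIs (0.185 to 0.194), below the 0.5% limit for members. Leap2 stood at 49.3 CPM there and Slc2a2 at 82.3 CPM. The MG53-TG table holds no such barcodes. Barcodes over 25 and up to 50% mitochondrial UMIs also met the rest of the rule, 491 of 2138 in WT (23.0%, 21.2 to 24.8) and 540 of 2697 in MG53-TG (20.02%, 18.5 to 21.6), with median mitochondrial shares of 38.8% and 39.2%. They outnumbered the members in each library. Of 61 genes checked by the naming rule, 0 were called one way in members and past 1.5-fold the other way in other kept cells.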

How the results depend on the processing

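No paired analysis was possible because each genotype had 1 library, and for the same reason no library could be left out. The member share (0.125 points higher in MG53-TG) was 1.30 points with a limit of 0.25%, 1.42 with 50% mitochondrial UMIs and 1.40 outside the goblet, Paneth and T cell limits, and lay between -0.14 and 0.51 under the other 8 alternatives. Genes past the fold, higher (187) were 120 with a limit of 0.25%, 426 with 1%, 287 and 102 with 15% and 50% mitochondrial UMIs, 111 with median of ratios, 289 with the mean of single-cell CPM, 555 with a minimum of 5 CPM or none and 27 with 100 CPM. Genes past the fold, lower (70) were 305 with 1%, 129 with 15% mitochondrial UMIs, 116 in members with no tip gene, 112 with median of ratios, 258 with single-cell means, 297 with 5 CPM or none and 9 with 100 CPM. Fewer cells were summed at 1% and at 15%, and fewer genes entered at 100 CPM; otherwise the cause was not tested. Along the share, 2 bins in place of 3 gave 1391 rising and 1653 falling genes, since fewer orders are possible.

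Of 504 list medians, 467 stayed close to their value. With a limit of 1%, sugar digestion and transport was 0.22, villus base and middle -0.45, villus tip 0.26, antimicrobial and acute injury -0.38, interferon response 1.39, antigen presentation 0.20, amino acid response and tRNA ligases 0.17, xenobiotic and glutathione 0.22, goblet cells 0.15 and enteroendocrine cells -4.91. With a limit of 0.25%, sugar digestion and transport was -0.016 and enteroendocrine cells 0.62. With barcodes thinned before the rule, villus base and middle was 0.12, villus tip 0.17, interferon response 0.73 and enteroendocrine cells -2.93. With 50% mitochondrial UMIs, fatty acid uptake, binding and activation was -0.12, villus base and middle -0.23, antimicrobial and acute injury -0.22 and enteroendocrine cells -0.69; with 15%, villus tip was -0.28 and enteroendocrine cells -2.79. With median of ratios, fatty acid uptake, binding and activation was -0.031, sugar digestion and transport -0.026, antimicrobial and acute injury -0.15 and housekeeping -0.051. With 100 CPM, antimicrobial and acute injury was -0.23, interferon response 0.66, ketone bodies -0.42 and Paneth cells -1.75. Villus tip was 0.32 with no tip condition and 0.13 in members with no tip gene, goblet cells 0.018 with 5000 UMIs, housekeeping -0.018 without members holding RNA of another type, and enteroendocrine cells -3.89 with the highest Scrublet scores removed, -0.12 with single-cell means and 0.10 in members with no tip gene.

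Of 676 values of called genes, 17 reversed. They were Gip (-0.51 with a limit of 1%, -0.71 with Scrublet, -0.58 without members holding RNA of another type), Fabp5 (-0.28 with Scrublet, -0.73 without those members), Sct (-0.77, -0.65 and -0.21), Krt18 (-0.047) and Dclk1 (-0.52 without those members, -2.16 with 1%). With 1%, Eif4ebp1 was -0.20 and Hmgcs1 -0.10. Ada was 0.43 with no tip condition, Rsad2 -0.072 with 15% mitochondrial UMIs and -1.01 in members with no tip gene, and Chga 0.32 with 0.25%. Members with no tip gene, those without RNA of another type and the 2 bins were added after seeing the data. Depth limits genes under 20 CPM, which had few UMIs in members.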
